A study of Mus musculus with 3 samples.

Results

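Endo_b is one of 3 endothelial cell (EC) clusters in a single-cell RNA-Seq atlas of the mouse renal medulla after reversible unilateral ureteral obstruction (R-UUO). Its members were all cells that carried the deposited cluster label Endo_b, and each of them also carried the cell type label Endo. They numbered 2192 of 181257 cells, which is 1.21% of the atlas and 10.1% of its 21707 ECs. The other ECs were labelled Endo_a (16020 cells) and EndoVR/papilla (3495 cells). The tables analysed here hold a pool, a cluster label, a UMI count, a number of detected genes and a mitochondrial percentage for each cell, and no expression of single genes. Pecam1, the adhesion molecule (CD31) that marks ECs, could therefore not be checked, and Endo_b is called here by its deposited label, which does not say from which vessel the cells came.

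ECs of the renal medulla line the descending and ascending vasa recta and the capillary plexuses between them. These vessels bring oxygen to a poorly perfused tissue and work as a countercurrent exchanger that takes up reabsorbed water while preserving the salt and urea gradient on which urinary concentration depends. Descending vasa recta are known for a continuous endothelium and ascending vasa recta for a fenestrated one, and loss of medullary capillaries is a recognised feature of chronic kidney injury.

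All animals were adult male BALB/c mice. In the R-UUO groups a vascular clamp obstructed the left ureter for several days and was then removed, and the right kidney was taken out later, so these mice had a single kidney. The control pools are labelled healthy controls, without surgery given in the labels, so that obstruction and nephrectomy cannot be told apart in any comparison with control. Medullas of 3 to 4 mice were frozen together as a pool, and there were 4 control pools (Control 1 to 4), 4 pools at day 28 (D28 1 to 4) and 2 pools at day 84 (D84 1 and 2) after R-UUO. The pool was the replicate, and because mice were mixed within a pool the spread between single mice is not seen. The tissue is labelled kidney papilla and the study names it both papilla and renal medulla, with a varying amount of outer medulla.

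Depth and purity differed between pools and are given here because they move with the results. The median UMI count per cell was 1139 to 1578 in control pools, 1566 to 3302 at day 28, and 911 and 751 at day 84. Proximal tubule cells, which lie outside the inner medulla, were 0.113% to 3.02% of control cells, 22.8%, 21.2%, 13.0% and 2.95% of cells in D28 1 to 4, and 3.6% and 7.64% at day 84. Pools of the same condition shared droplet barcodes, with a probe barcode telling the pools apart: 59.5% of Endo_b cells in the controls, 53.2% at day 28 and 28.2% at day 84 had a droplet barcode that also occurred in another pool of that condition, against 57.5%, 48.6% and 24.7% of all cells. Only 9.6%, 13.5% and 12.6% of Endo_b cells had a droplet barcode that occurred in another condition. No label names a droplet run. If the pools of a condition shared a run, as these barcodes allow, condition and run cannot be told apart. Run-to-run variation would then be missing from the spread between pools.

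Endo_b made up a smaller share of ECs at day 28 than in the controls in the pool means, and a larger one at day 84. In the controls it was 10.5%, 10.6%, 7.18% and 9.49% of the ECs of Control 1 to 4, a mean of 9.45% ± 1.60 (SD, n = 4 pools). At day 28 it was 2.42%, 5.04%, 2.74% and 8.57% in D28 1 to 4, a mean of 4.69% ± 2.83 (SD, n = 4), and at day 84 it was 24.4% and 15.3%, a mean of 19.9% ± 6.45 (SD, n = 2). D28 4 lay within the control range and the other day 28 pools lay below it, whereas both day 84 pools lay above every other pool. The day 28 pools rested on few cells, with 32, 77, 55 and 148 Endo_b cells in D28 1 to 4, against 141 to 371 in control pools and 480 and 338 at day 84. The 95% Wilson interval, which covers counting error only, ran from 1.72% to 3.4% in D28 1 and from 7.34% to 9.98% in D28 4, so these pools differed by more than counting error.

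**Figure D1:**
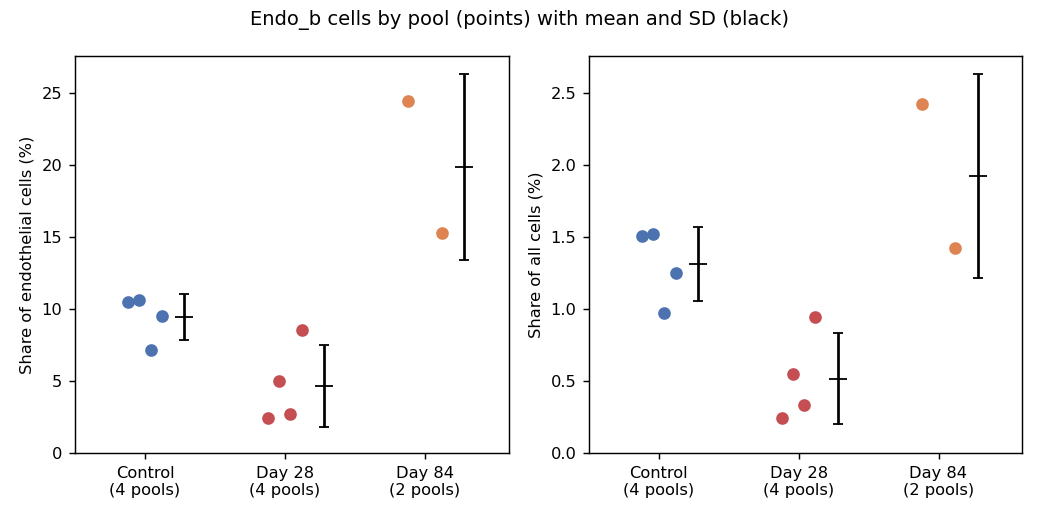
Share of ECs (left, percent) and of all cells (right, percent) that were Endo_b, with a point for each pool and the mean and SD of the pools in black. The day 84 pools, at 24.4% and 15.3% of ECs, lie above all others in the left panel, and D28 4 lies among or next to the control pools in both.

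On the log2 odds scale the share of ECs fell by 1.25 at day 28 (SE 0.446, limma adjusted p = 0.0208), a contrast in which all 3 EC clusters passed (100%). The exact permutation test, in which 0.0286 is the smallest p for 4 pools against 4, gave p = 0.0571. At day 84 the difference from control was 1.23 (SE 0.547, 95% interval from -0.00911 to 2.46), which did not pass (limma adjusted p = 0.11). None of the 3 EC clusters passed in this contrast with limma (0.0%), and 0 did so at an unadjusted p under 0.05. From day 28 to day 84 the share rose by 2.47 (SE 0.547, limma adjusted p = 0.00266; 66.7% of EC clusters passed), a 5.56-fold change in odds. The exact permutation p for either day 84 comparison was 0.0667, the smallest that 4 pools against 2 allow. The call at day 28 was lost without Control 1 (-1.19, adjusted p = 0.0507), without D28 1 (-0.99, 0.059) or without D28 3 (-1.04, 0.0542). The difference of 1.23 at day 84 passed without D28 4, whose part in the shared spread is then gone (limma adjusted p = 0.0265), and was 0.81 without D84 1. With a stricter filter on cells (at least 500 detected genes and at most 5% mitochondrial) it was 2.44 and passed (adjusted p = 0.00404), and that between the time points was 3.70 (0.000158). At day 84 the limit of 500 genes removed 43.6% and 74.5% of Endo_a and 54.67% and 84.65% of EndoVR/papilla, but 5.21% and 7.1% of Endo_b. In control pools it removed at most 18.0%, 2.63% and 1.42% of these clusters in the same order. The part of this removal in the larger differences was not tested.

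Shares within a lineage have to add up to the whole, so the same cells were also set against all cells of their pool. Neither share gives a number of cells per kidney. Endo_b was 1.51%, 1.52%, 0.978% and 1.26% of the cells of Control 1 to 4, 0.246%, 0.549%, 0.333% and 0.950% of D28 1 to 4, and 2.43% and 1.42% of the day 84 pools. Every day 28 pool lay below every control pool, although D28 4 came within a narrow margin of Control 3, and D84 2 lay inside the control range. The share of all cells fell by 1.51 log2 odds at day 28 (SE 0.421, limma adjusted p = 0.00937, exact permutation p = 0.0286), where 22 of 25 clusters changed (88.0%) and 9 of 25 fell (36.0%). In order of size its change was the 7th lowest of 25, with EndoVR/papilla lowest at -3.12, while Endo_a differed by 0.15 (adjusted p = 0.394). At day 84 the difference from control was 0.53 (95% interval from -0.641 to 1.70, limma adjusted p = 0.378, exact permutation p = 0.267), in a contrast in which 12 of 25 clusters passed (48.0%). It was 0.14 without D84 1 and 0.92 without D84 2.

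Between day 28 and day 84 the share of all cells rose by 2.04 log2 odds (SE 0.515, limma adjusted p = 0.0431, exact permutation p = 0.0667), and both day 84 pools lay above all 4 day 28 pools. This was the highest value among the 25 clusters, whose median was 0.44, and 2 of 25 passed (8.0%), the other one being Uro. Endo_a differed by -0.53 (adjusted p = 0.0858) and EndoVR/papilla by 0.54 (adjusted p = 0.67). The call was lost without any one of Control 1, Control 3, Control 4, any day 28 pool except D28 4, or either day 84 pool, with values from 1.65 (without D84 1, adjusted p = 0.203) to 2.43 (without D84 2, adjusted p = 0.0877). At day 28 Endo_b was lowest in D28 1 and highest in D28 4, and the proximal tubule share was highest in D28 1 and lowest in D28 4. The pools between them went the other way. D28 2 had 21.2% proximal tubule cells and 0.549% Endo_b, and D28 3 had 13.0% and 0.333%. With proximal tubule cells taken out of the denominator the difference at day 28 was -1.29 (limma adjusted p = 0.00835), and with the other outer medullary clusters taken out as well it was -1.12 (0.0122).

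**Figure D2:**
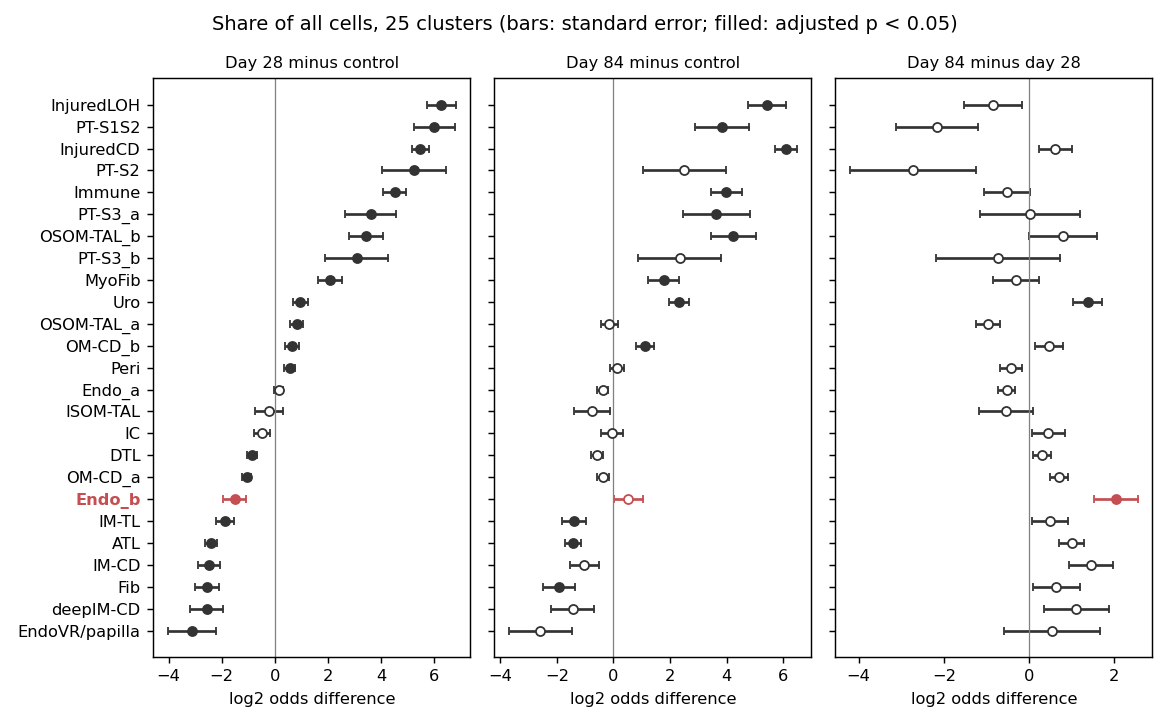
Difference in log2 odds of the share of all cells (horizontal axis) for each of the 25 clusters, ordered by the day 28 difference, with limma standard errors as bars, filled points for an adjusted p under 0.05 and Endo_b in red. Endo_b lies at -1.51 in the comparison of day 28 with control, at 0.53 in that of day 84 with control, and at 2.04, the highest of the clusters, in that of day 84 with day 28.

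The number of Endo_b cells for each 100 Endo_a cells leaves all other clusters of a pool out. It was 16.9, 14.9, 10.9 and 15.9 in Control 1 to 4, 2.66, 5.59, 3.27 and 9.41 in D28 1 to 4, and 34.0 and 20.6 in the day 84 pools. The 3 conditions did not overlap, with day 28 lowest and day 84 highest. The mean log2 ratio differed from control by -1.64 at day 28 (exact permutation p = 0.0286) and by 0.87 at day 84 (exact p = 0.0667), and day 84 differed from day 28 by 2.51 (exact p = 0.0667). Each of these was the smallest p its design allows, and after adjustment over the 3 comparisons each became 0.0667. The difference of day 84 from control was 1.98 with the stricter filter, 0.51 without D84 1 and 1.23 without D84 2.

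The lower edge of the UMI distribution moved with these ratios. Cells under 500 detected genes were 0% to 1.42% of Endo_b in control pools, 0% in each day 28 pool, and 5.21% and 7.1% at day 84. In Endo_a they were 6.16% to 18.0% in the controls, 1.25% to 13.4% at day 28, and 43.6% and 74.5% at day 84. Endo_a thus stood closer to the study's limit of 300 detected genes at day 84 than Endo_b did. The 10th percentile of detected genes in D84 1 and D84 2 was 420 and 352 in Endo_a, and 550 and 529 in Endo_b. Single Endo_b cells also came near the limit, the lowest with 345 detected genes at day 84. Under 500 genes were 53 of 2192 Endo_b cells, 49 of them from day 84. Cells excluded by that limit were not analysed here, and their part in the ratio was not tested.

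**Figure D3:**
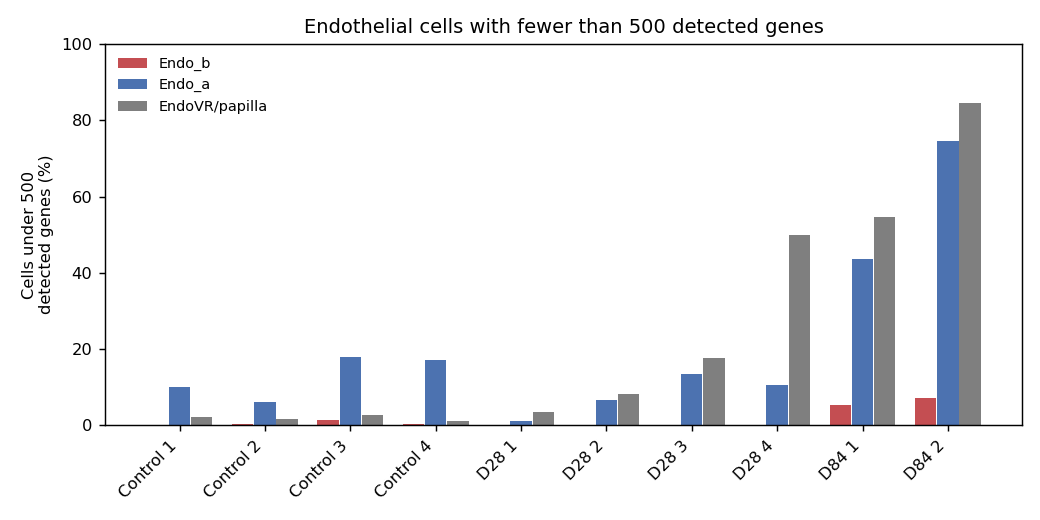
Percentage of cells with fewer than 500 detected genes in each pool, for Endo_b, Endo_a and EndoVR/papilla. Bars for Endo_b reach at most 7.1%, while those of Endo_a reach 43.6% and 74.5% in the day 84 pools, and the bar of EndoVR/papilla in D28 4 stands for 8 cells.

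When the same lower limit was set in every pool relative to its own median (0.525 of the pool's median UMI count, the highest first percentile of the pools, chosen after seeing the data), it removed 17.3% to 38.7% of Endo_a and 0.7% to 2.8% of Endo_b in control pools. At day 28 it removed 32.1% to 46.4% of Endo_a and 4.1% to 16.4% of Endo_b, and at day 84 it removed 6.7% and 4.8% of Endo_a and 0.6% and 0% of Endo_b. Under this limit the share of ECs differed by -0.93 at day 28 (limma adjusted p = 0.07, call lost), by 1.01 at day 84 (0.114), and by 1.94 between the time points (0.0105). The ratio to Endo_a differed from control by -1.45 at day 28 and by only 0.54 at day 84, with exact permutation p of 0.0857 and 0.267 after adjustment over the 3 comparisons, and day 84 differed from day 28 by 1.99 (0.1). The share of all cells still fell by 1.47 at day 28 (limma adjusted p = 0.0112).

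Endo_b cells carried more UMIs than the other ECs of their pool. Their median UMI count was 1619, 2166, 1534 and 1600 in Control 1 to 4, 4335, 2249, 1558 and 1659 in D28 1 to 4, and 949 and 966 at day 84. D28 1 stood far above the other day 28 pools, as did that pool's depth, and both day 84 pools lay below every other pool. Set against Endo_a of the same pool, the Endo_b median was 1.52- to 2.37-fold higher, in 10 of 10 pools, with a mean of 1.90 ± 0.279 (SD, n = 10 pools), and against EndoVR/papilla it was 1.15- to 2.87-fold higher, also in 10 of 10, the value of D28 4 resting on 8 EndoVR/papilla cells. Over all pairs of an Endo_b and an Endo_a cell of the same pool, the Endo_b cell had more UMIs in 73.3% to 91.0% of pairs. These are descriptions of clusters that were made from the same cells, and they were not tested. As a consequence Endo_b held a larger part of the EC UMIs than of the EC cells, with 10.8% to 19.4% in control pools, 3.79% to 13.7% at day 28, and 33.1% and 25.4% at day 84.

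**Figure D4:**
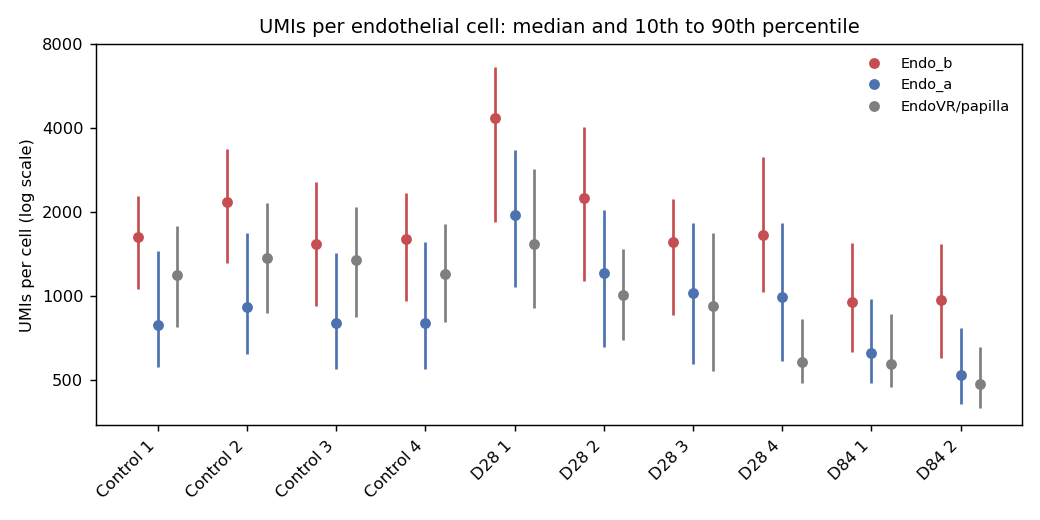
UMIs per cell (log scale) for the 3 EC clusters in each pool, with points at the median and lines from the 10th to the 90th percentile. Endo_b lies above Endo_a and EndoVR/papilla in all 10 pools, and its median is highest in D28 1 (4335) and lowest in D84 1 (949).

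Between conditions, the median UMI count of Endo_b moved with the depth of the pools. The log2 difference was 0.39 at day 28 (SE 0.284, limma adjusted p = 0.249, 36.0% of clusters passed), -0.84 at day 84 (SE 0.347, adjusted p = 0.0495, exact permutation p = 0.0667, 40.0% passed), and -1.23 between the time points (adjusted p = 0.00181, exact p = 0.133, 100% passed). Without D28 1 the difference at day 28 was 0.07 (adjusted p = 0.735). Endo_b lay near the middle of the clusters, whose medians were 0.52, -0.71 and -1.21. The clusters of a pool share its depth, so the limma p-values for UMIs, detected genes and mitochondrial UMIs are too small, and the exact p beside them is the safer one. The call at day 84 was lost without Control 1, 2 or 4, D28 2, D28 4, D84 1 or D84 2, with values from -0.87 to -0.73 and adjusted p from 0.0508 to 0.266.

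Relative to all other cells of its pool the Endo_b median was 1.43-, 1.38-, 1.31- and 1.33-fold in Control 1 to 4, 1.31-, 1.02-, 0.840- and 1.06-fold in D28 1 to 4, and 1.04- and 1.29-fold at day 84. The control pools lay close together and above all day 28 pools, D28 1 only just. This relative count fell by 0.38 on the log2 scale at day 28 (SE 0.131, limma adjusted p = 0.0436, exact permutation p = 0.0286), where 8 of 25 clusters passed, all 8 of them lower (32.0%), and differed by -0.23 at day 84 (adjusted p = 0.339, 20.0% passed; -0.52 and passing at 0.0219 with the stricter filter). Day 84 and day 28 differed by 0.15 (limma adjusted p = 0.534), in a contrast where 0 of 25 clusters passed (0.0%) and 5 had an unadjusted p under 0.05. With the other ECs of the pool as the reference the difference at day 28 was -0.02 (adjusted p = 0.989). The 2 other EC clusters stood apart here. The Endo_b cell had more UMIs in 85.5% to 91.0% of pairs with Endo_a cells in control pools and in 73.3% to 83.2% at day 28, whereas its median was 1.15- to 1.59-fold that of EndoVR/papilla in control pools and 1.69- to 2.87-fold at day 28. Neither pair of ranges overlapped, one moved down and the other up, but they are in different measures, and with the measures exchanged the ranges overlapped. The Endo_b median was 1.92- to 2.37-fold that of Endo_a in control pools and 1.52- to 2.22-fold at day 28. Against EndoVR/papilla cells, the Endo_b cell had more UMIs in 61.6% to 80.1% of control pairs and 77.1% to 98.4% at day 28. None of these differences was tested. The call was also lost without any one of Control 1 (-0.36), Control 4 (-0.40), D28 2 (-0.37), D28 3 (-0.28) or D28 4 (-0.39), with adjusted p from 0.0568 to 0.107.

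The spread of UMIs among Endo_b cells was wider at day 28. The 90th percentile was 2.16 to 2.78 times the 10th in control pools, 3.59, 3.58, 2.61 and 3.05 times in D28 1 to 4, and 2.45 and 2.57 times at day 84. D28 3 lay inside the control range, and the difference was not tested. Endo_a went from 2.61 to 2.84 times in control pools to 3.08 to 3.23 times at day 28, without overlap. EndoVR/papilla had 2.25 to 2.48 times in control pools and 1.71 to 3.15 times at day 28, which overlapped. A wider spread at day 28 was thus not particular to Endo_b. Single cells ran from 424 to 22296 UMIs over all pools.

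Detected genes followed the UMIs. The median was 1286, 1525, 1175 and 1202 genes in Control 1 to 4, 2494, 1555, 1131 and 1261 in D28 1 to 4, and 787 in both day 84 pools. The day 28 and control pools overlapped, and the day 84 pools lay below all others. The log2 difference was 0.25 at day 28 (limma adjusted p = 0.345, 32.0% of clusters passed), -0.71 at day 84 (SE 0.263, adjusted p = 0.0185, exact permutation p = 0.0667, 60.0% passed) and -0.96 between the time points (adjusted p = 0.000724, exact p = 0.133, 100% passed). Without D28 1 the value at day 28 was 0.02 (adjusted p = 0.956). Without D84 1 or without D84 2 the value at day 84 stayed at -0.71 and did not pass (adjusted p = 0.0891 and 0.145).

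Within a window of UMIs the difference at day 84 was smaller, and its call depended on the window. Depth was not fully matched there. Among cells with 1000 to 1500 UMIs, the median Endo_b UMI count was 1279 to 1342 in control pools and 1176 and 1204 at day 84. In D28 2 to 4 it was 1280, 1213 and 1319. The part of this remaining depth in the differences was not tested, and depth within the other windows was not compared. Among Endo_b cells with 1000 to 1500 UMIs the median was 1102, 1022, 985 and 1021 genes in Control 1 to 4, 907, 942 and 1030 in D28 2 to 4, and 946 and 948 at day 84. D28 1 had 1 such cell and gave no value, and D28 2 had 11. Both day 84 pools lay below all control pools, by a log2 difference of -0.12 (SE 0.0576, limma adjusted p = 0.105, exact permutation p = 0.0667, 26.7% of 15 clusters passed). At day 28 the difference was -0.11 (SE 0.0508, adjusted p = 0.565, exact p = 0.2, 0.0% passed), the lowest of the 15 clusters that could be compared, whose median was -0.01. At an unadjusted p under 0.05 the count of clusters at day 28 was 1, Endo_b itself. Day 84 and day 28 differed by -0.02 (adjusted p = 0.911, 26.7% passed). Among cells with 1500 to 3000 UMIs, day 84 differed from control by -0.24 (limma adjusted p = 0.0332) and from day 28 by -0.19 (0.0383), both passing, and among cells with 500 to 1000 UMIs by -0.09 (0.123) and -0.02 (0.8). Within a pool, Endo_b cells with 1000 to 1500 UMIs had 1.00 to 1.39 times as many detected genes as Endo_a cells, with 9 pools that gave a value. In each of these pools the Endo_b cells of the window also had the higher median UMI count. It was 1279 to 1342 against 1167 to 1172 in control pools, and 1176 and 1204 against 1125 and 1127 at day 84. The ratio of detected genes is thus not free of depth.

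Mitochondrial UMIs were nearly universal in control Endo_b cells and scarce after R-UUO. The share of Endo_b cells without any mitochondrial UMI was 0%, 0%, 0% and 1.18% in Control 1 to 4, 25%, 75.3%, 65.5% and 40.5% in D28 1 to 4, and 68.3% and 100% at day 84. None of the 338 cells of D84 2 had a mitochondrial UMI, which allows a share of up to 0.888%. The groups after R-UUO did not overlap with the controls (limma adjusted p = 0.000287 with exact permutation p = 0.0286 for day 28, and 2.08e-06 with 0.0667 for day 84), but 23 of 25 clusters changed likewise at day 28 (92.0%) and all 25 at day 84 (100%). Day 84 and day 28 overlapped (limma adjusted p = 0.16), and 0 of 25 clusters passed in that contrast (0.0%), with 6 at an unadjusted p under 0.05. The remaining cells of the same pools lacked mitochondrial UMIs in 0.0167% to 1.18% of control cells, 34.6% to 74.6% of day 28 cells, and 59.7% and 96.7% of day 84 cells. The mean mitochondrial percentage of Endo_b was 1.04% ± 0.320 (SD, n = 4 pools) over the control pools and 0.135% ± 0.0997 (SD, n = 4 pools) over those of day 28, with 0.061% in D84 1 and 0% in D84 2. The change covers almost every cluster of a condition. A droplet run shared by the pools of a condition, read from barcodes and named by no label, cannot be told apart from the condition.

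Within the day 28 pools, Endo_b carried more mitochondrial UMIs than Endo_a. Per 10000 UMIs, Endo_b had 93.3, 154, 85.9 and 77.6 mitochondrial UMIs in Control 1 to 4, and Endo_a had 98.9, 156, 108 and 108. In D28 1 to 4, Endo_b had 10.3, 1.43, 8.37 and 20.8, and Endo_a had 5.14, 0.917, 0.484 and 1.06. The Endo_b rate was therefore 0.716 to 0.986 times that of Endo_a in every control pool, and 2.01, 1.55, 17.3 and 19.7 times in D28 1 to 4. The mean log2 ratio was -0.23 ± 0.22 (SD, n = 4 pools) across control pools and 2.51 ± 1.96 (SD, n = 4 pools) across day 28 pools, which is a difference of 2.74 (exact permutation p = 0.0286, the smallest this design allows). The comparison was chosen after its values were seen. The median rate of the clusters with at least 10 cells was 134, 234, 153 and 122 in Control 1 to 4. It was 15.6, 1.69, 3.54 and 8.59 in D28 1 to 4. Endo_a lay below this median in each of these pools. Endo_b lay below it in every control pool and in D28 1 and D28 2, and above it in D28 3 and D28 4. How far the difference reflects a change in Endo_a was not tested. EndoVR/papilla had 116 to 186 mitochondrial UMIs per 10000 in control pools and 26.3, 0.522, 1.13 and 7.96 in D28 1 to 4. It thus also lay above Endo_a in 3 of 4 day 28 pools and above Endo_b in D28 1, the values of D28 2 and D28 4 resting on 4 mitochondrial UMIs each, so a rate above that of Endo_a was not particular to Endo_b.

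The day 28 rates rest on few molecules, with 157, 27, 73 and 587 mitochondrial UMIs in the Endo_b cells of D28 1 to 4, in 24, 19, 19 and 88 cells. Without the 5 cells of highest mitochondrial percentage in each cluster and pool the difference was 2.23, and among cells with 1000 to 1500 UMIs it was 2.89, with the same exact p of 0.0286. Without any one control pool it was 2.66 to 2.81 and the exact permutation p was 0.0857. Among the clusters with at least 10 cells, Endo_b ranked 17th to 22nd from the highest mitochondrial rate in the control pools, 18th and 16th in D28 1 and D28 2, and 7th in D28 3 and D28 4. At day 84 the ratio was 1.26 in D84 1, and D84 2 gave none, since Endo_b had 0 mitochondrial UMIs and Endo_a had 4.

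**Figure D5:**
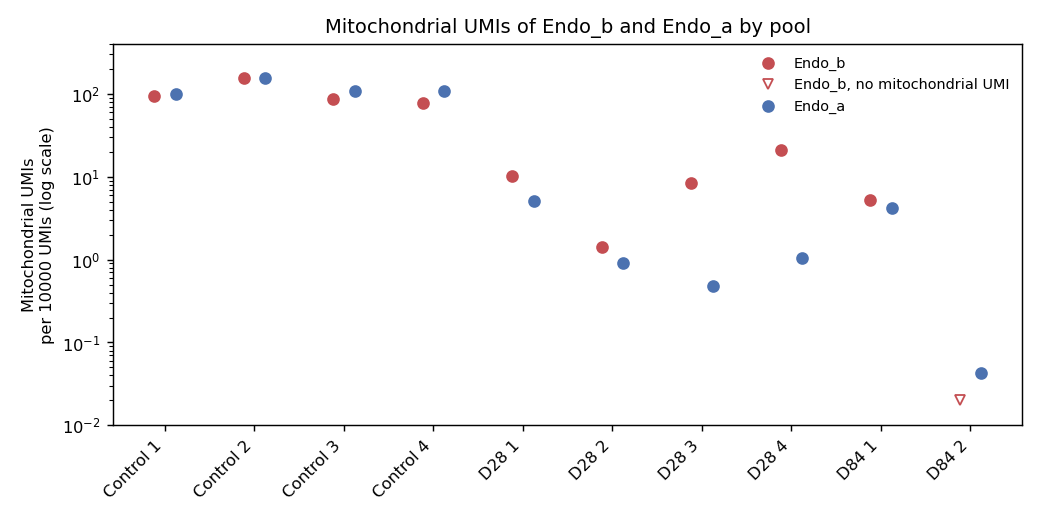
Mitochondrial UMIs per 10000 UMIs (log scale) in Endo_b and Endo_a of each pool, where the open triangle marks a value of 0 drawn at the foot of the axis. Endo_b lies slightly below Endo_a in the 4 control pools and above it in the 4 day 28 pools, most of all in D28 3 (8.37 against 0.484) and D28 4 (20.8 against 1.06).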

How the data were processed

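Fixed single cells were profiled with gene probes whose barcode marks the pool. The authors counted UMIs with Cell Ranger 7.1 (build mm10 per the submitters' processing notes), removed cells under 300 detected genes or above 10% mitochondrial content, used SoupX against ambient RNA, scDblFinder and mixed marker signatures against doublets, and Seurat for integration and clustering. The deposited UMI counts per cell are whole-number counts except in Control 1, where every cell has an expected count that is not whole, which was used as it stands. Detected genes are deposited as a count and mitochondrial content as a percent of UMIs. No doublet caller was run again, since no gene counts were used.

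The deposited Endo_b label chose the cells. The cluster, the lists and the tests were chosen with earlier results of these data known. Shares were compared as log2 odds with 0.5 cells added to both parts, and UMIs and detected genes as pool medians on the log2 scale for clusters with at least 10 cells in a pool. limma 3.58.1 in R 4.3.3 (lmFit, eBayes, two-sided) fitted all 10 pools together. The fit for the share of ECs held the 3 EC clusters only, and the other fits held all clusters with enough values. Benjamini-Hochberg adjustment ran over the clusters of each fit, with a threshold of 0.05. Exact two-sided permutation tests over pools were run in Python 3.11.15 with pandas 2.3.3. The fit was tested on simulated data in which each cluster was drawn independently. That test cannot show how a depth shared by the clusters of a pool affects the limma p-values. Nothing says that the mice of different pools shared a litter or day, and p-values measure the spread between pools. Intervals and limits for counts of 0 cover counting error only. Alternatives were a stricter filter (500 genes, 5% mitochondrial), dropping each pool's 5% of cells of highest UMI count, 1 cell added, a minimum of 20 cells, means for medians, other references, denominators and UMI windows, and leaving out each pool. A lower UMI limit relative to the pool median and the comparison of mitochondrial rates were added after seeing the data. Named clusters are the other EC clusters and those that mark the ends of an order or a count.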

Additional observations from a re-analysis of the deposited data

Results flagged for a closer look

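Among the 15 groups of 4 control or day 28 pools examined with Dixon's test, 2 held a pool apart from the rest, 1 of them by construction (the share without a mitochondrial UMI), where chance gives about 1 in 20. The median UMI count of Endo_b in Control 2 was 2166, against 1534 to 1619 in the other control pools, and that pool was also the deepest of the controls, with a median of 1578 UMIs over all cells. The share of Endo_b cells without a mitochondrial UMI was 1.18% in Control 4, which is 3 of 255 cells, and 0 in the other control pools. With 3 pools at 0, any value above 0 in the remaining pool stands apart by this test, so it carries no information here.

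Day 84 and day 28 differed from each other in 4 measures of Endo_b by the limma test of the difference itself. The share of ECs differed by 2.47 log2 odds and the share of all cells by 2.04, both higher at day 84, while the UMIs per cell differed by -1.23 and the detected genes by -0.96 on the log2 scale. All 25 clusters passed in the last 2 of these measures (100%), so they are not particular to Endo_b. The exact permutation p was 0.0667 for both shares and 0.133 for UMIs and for detected genes. The call for the share of all cells was lost in 8 of 16 alternatives.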

How the results depend on the processing

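Of 363 alternatives to 25 results, 320 kept the direction and the side of the threshold. Part of this count was fixed in advance. The ratio to Endo_a could not pass in any alternative, because its adjusted p cannot fall under the threshold with so few pools. Leaving out a pool of a condition outside a comparison changes only the spread, not the difference. The stricter filter gave 2.44 for the share of ECs at day 84 (limma adjusted p = 0.00404, now passing). It gave -0.52 for the relative UMIs at day 84 (0.0219, now passing) and -0.07 for the relative UMIs between the time points (0.808, sign turned). At day 84 its limit of 500 genes removed 43.6% and 74.5% of Endo_a, against 5.21% and 7.1% of Endo_b, and the cause was not tested. The relative lower UMI limit gave -0.93 for the share of ECs at day 28 (0.07). Means in place of medians gave -0.79 for UMIs at day 84 (0.0555) and -0.19 for relative UMIs at day 28 (0.275), and other ECs as the reference gave -0.02 (0.989) at day 28 and -0.1 (0.902, sign turned) between the time points. In the window of 1500 to 3000 UMIs, detected genes differed by -0.24 at day 84 (0.0332) and by -0.19 between the time points (0.0383), both now passing; the cause was not tested.

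Leaving out 1 pool at a time, the share of ECs ranged from -1.62 to -0.99 at day 28, 0.81 to 1.65 at day 84 and 2.06 to 2.89 between the time points, and the share of all cells between the time points from 1.65 to 2.43. UMIs at day 84 ranged from -0.89 to -0.73, relative UMIs from -0.49 to -0.28 at day 28 and from -0.00055 (without D84 2) to 0.31 between the time points, and detected genes at day 84 from -0.76 to -0.63. Detected genes at matched UMIs between the time points ranged from -0.06 to 0.03 (without D28 4), cells without a mitochondrial UMI from 1.0 to 9.3 log2 odds (without D84 1, adjusted p = 0.000188), and the mitochondrial rate ratio at day 28 from 2.15 to 3.37. Without a day 84 pool, the lone pool is assumed to vary like the other groups. No paired analysis was possible because the pools hold different mice and no label pairs them across conditions. The number of pools, 2 at day 84, and the 32 to 148 Endo_b cells of day 28 pools limit the precision.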

Other observations

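Of the cells in the other pools that had a droplet barcode in common with an Endo_b cell, Endo_b cells were 24 of 840 among control pools, 0 of 225 among day 28 pools and 8 of 231 among day 84 pools, where Endo_b made up 1.35%, 0.528% and 1.88% of all cells of the condition.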
